A study of Homo sapiens with 2 samples.

Results

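The genes described here are 48 enzymes and complex subunits that write, read or erase DNA methylation, Polycomb marks and histone modifications, out of 25702 genes counted in K562, an established leukemia line of erythroid character whose growth depends on BCR-ABL1. They were chosen by name, and 47 were found by symbol in the authors' deposited table. The remaining member, SETD8, was found under its current symbol KMT5A. All 48 were joined by Entrez identifier to the counts, and all 48 reached 1 CPM (1 count per 1000000 counts of the scaled library) in at least 1 library, so none was lost to the filter on low values. The cells were asynchronous and grown in RPMI medium with serum. The control was exposed to the solvent DMSO for 48 h, and the treated cells to 1 µM cabozantinib (XL184), which blocks several receptor tyrosine kinases, MET among them, for 48 h. With 1 library in each group, the differences have no check by replicates, and no test between the conditions was possible.

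DNA methylation is copied to new strands by DNMT1, which UHRF1 guides to half-methylated sites, whereas DNMT3A and DNMT3B methylate unmarked DNA and the TET enzymes oxidise the mark. Polycomb repressive complex 2 (PRC2) methylates lysine 27 of histone H3 through EZH1 or EZH2, and Polycomb repressive complex 1 (PRC1) binds that mark through CBX proteins and ubiquitinates histone H2A. Acetyltransferases and deacetylases, and methyltransferases and demethylases, act as opposing pairs on histone tails, and in red cell precursors EZH2, LSD1 (KDM1A) and the deacetylases are known as partners of lineage factors.

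The stretches before the annotated start of 5 genes are shown because their transcripts differed between the libraries in ways described below. EZH1 and EZH2 are alternative catalytic subunits whose counts differed in opposite directions, UHRF1 was among the higher genes, and KDM4A and KDM6B were the lower ones. Each run is the 250 bases upstream of the start, 5′ to 3′ on the gene's strand, from RefSeq on GRCh38.p14. Capitals mark words of 4 motifs on either strand: E2F (TTTCCCGC, TTTCGCGC, TTTGCCGC or TTTGGCGC), the GATA factor motif, the E-box and the CCAAT box. The GATA motif was searched as AGATAA. The other form searched for these factors was TGATAA. The E-box, which MYC and USF proteins bind, was searched as CACGTG. These words do not overlap one another in the runs shown. EZH1 lies on the minus strand at chr17:42745041-42745290, EZH2 on the minus strand at chr7:148884292-148884541, UHRF1 on the plus strand at chr19:4909251-4909500, KDM4A on the plus strand at chr1:43649899-43650148 and KDM6B on the plus strand at chr17:7833967-7834216.
EZH1: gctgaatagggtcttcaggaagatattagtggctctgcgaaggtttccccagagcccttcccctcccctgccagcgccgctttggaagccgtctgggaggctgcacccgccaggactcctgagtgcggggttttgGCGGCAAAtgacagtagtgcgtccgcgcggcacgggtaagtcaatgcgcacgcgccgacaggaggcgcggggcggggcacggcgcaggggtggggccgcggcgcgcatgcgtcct
EZH2: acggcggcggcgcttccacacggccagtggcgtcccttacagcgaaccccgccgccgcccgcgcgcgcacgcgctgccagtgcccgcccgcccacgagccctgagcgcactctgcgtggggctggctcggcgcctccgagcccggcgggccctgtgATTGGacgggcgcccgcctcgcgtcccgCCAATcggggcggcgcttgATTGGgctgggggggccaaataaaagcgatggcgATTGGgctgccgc
UHRF1: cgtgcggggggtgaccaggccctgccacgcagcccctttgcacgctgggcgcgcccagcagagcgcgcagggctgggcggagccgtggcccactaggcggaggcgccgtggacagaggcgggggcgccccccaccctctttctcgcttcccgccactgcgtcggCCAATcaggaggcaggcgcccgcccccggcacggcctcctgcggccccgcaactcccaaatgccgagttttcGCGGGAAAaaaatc
KDM4A: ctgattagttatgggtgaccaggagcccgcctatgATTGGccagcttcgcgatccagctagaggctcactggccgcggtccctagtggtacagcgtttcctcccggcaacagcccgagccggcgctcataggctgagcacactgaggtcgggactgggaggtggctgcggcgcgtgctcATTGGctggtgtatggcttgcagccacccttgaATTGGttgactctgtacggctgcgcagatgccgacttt
KDM6B: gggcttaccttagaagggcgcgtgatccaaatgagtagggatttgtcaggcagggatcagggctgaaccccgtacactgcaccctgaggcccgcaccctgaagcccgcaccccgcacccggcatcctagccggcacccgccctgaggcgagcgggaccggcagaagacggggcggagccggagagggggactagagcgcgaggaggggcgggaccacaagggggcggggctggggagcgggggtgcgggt
The run of EZH1 holds 1 E2F word, that of UHRF1 1 E2F word and 1 CCAAT box, that of EZH2 4 CCAAT boxes and that of KDM4A 3, while that of KDM6B holds none of the 4 motifs.

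Sequence windows of 300 bases, 250 before to 50 after the start, were matched for 43 of the 48 members. An E2F word was in 6 of these 43 windows (14.0%), those of DNMT1, UHRF1, EZH1, EZH2, SUZ12 and SIRT6, against 3.33% of the 27305 windows of all genes. The word in the EZH2 window lies in its last 50 bases, after the start. A GATA word was in 2 of 43 (4.65%, against 16.6% of all windows), an E-box in 6 (14.0%, against 7.43%) and a CCAAT box in 14 (32.6%, against 35.7%). The median window of the members held 28 CG dinucleotides and that of all genes 14. The windows of all genes include genes not measured here, so these shares compare unlike sets. These matches describe letters only and were not set against binding data.

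With cabozantinib, the demethylase genes KDM6B and KDM4A were 3.19-fold and 2.24-fold lower, and CBX2, UHRF1, KAT2B, EZH1, EHMT2 and KAT2A were 1.51-fold to 1.98-fold higher. The other 40 members were within 1.5-fold. A member counted as higher or lower when its log2 ratio (cabozantinib over DMSO, after TMM scaling and with 0.5 added to each count) was past 1.5-fold and its 95% interval (exact, by Clopper and Pearson, on the split of its counts between the libraries) excluded no change. Such intervals cover counting error only. By this rule 6 of 48 members were higher (12.5%, where 8.15% of the 12536 measured genes were higher) and 2 were lower (4.17%, where 12.3% of the measured genes were lower), 8 in all (16.7%, where 20.5% of the measured genes were past it either way). Scaled by total counts, 4 members were higher and 2 lower, where the measured genes had 6.05% higher and 14.6% lower. All 48 members reached 5 CPM, and of the genes at that level 6.8% were higher and 9.74% lower. At 2-fold 0 members were higher (2.71% of all measured genes) and 2 were lower (5.76% of all measured genes).

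**Figure D1:**
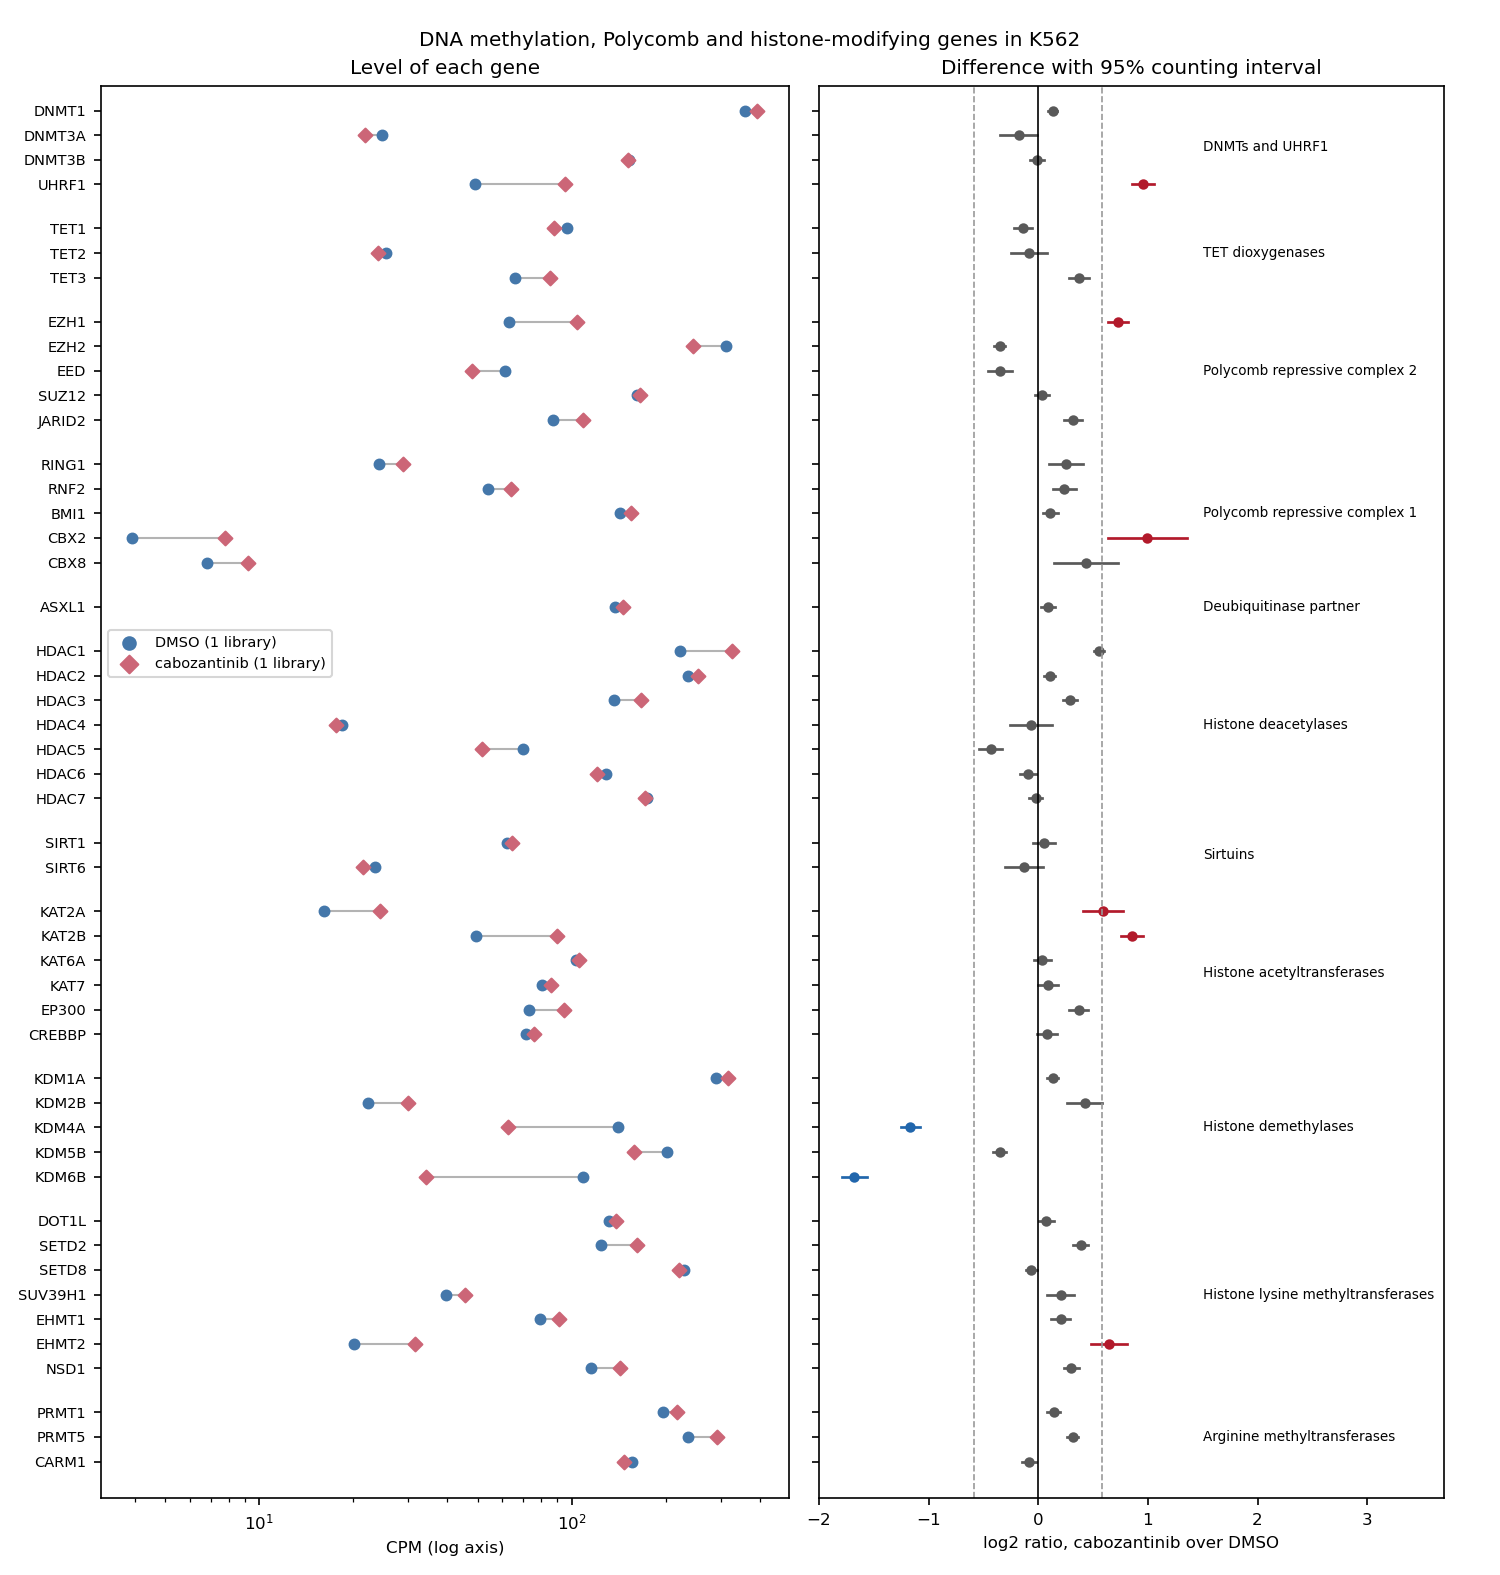
Left, the level of each of the 48 members in CPM on a log axis, with a circle for the DMSO library and a diamond for the cabozantinib library. Right, the log2 ratio of cabozantinib over DMSO with its 95% counting interval, dashed lines at 1.5-fold, the 6 higher members in red and the 2 lower ones in blue. KDM6B and KDM4A stand apart on the left of the right panel.

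The members' median log2 ratio was 0.11, beside 0.01 for all measured genes. In all, 32 of the 48 (66.7%) were above 0, against 51.0% of all measured genes, and 25 of 48 (52.1%) lay within 0.25 of no change, against 46.1%. All 48 members reached 5 CPM. Of the genes at that level 52.6% were above 0 and 50.1% lay within 0.25 of no change, with a median of 0.024. The counting interval lay above 0 for 28 members, below 0 for 11 and across 0 for 9. Of the 12536 measured genes it lay above 0 for 4360 and below 0 for 4026. These are descriptions of 2 libraries. Scaling by total counts in place of TMM shifts every log2 ratio by -0.08, and the members' median is then 0.024, with 27 of the 48 above 0. The median of all measured genes is then -0.07, so the members' median lies 0.10 above it as it does with TMM.

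**Figure D2:**
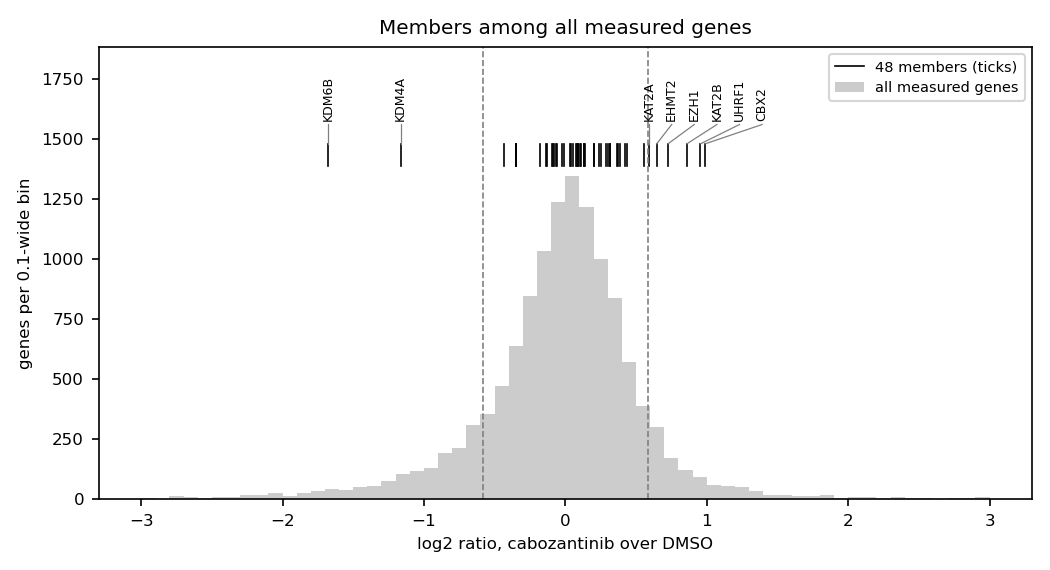
Histogram of the log2 ratio, cabozantinib over DMSO, of the 12536 measured genes in bins 0.1 wide (66 genes beyond 3 in size are not drawn), with a tick above it for each of the 48 members and dashed lines at 1.5-fold. Most ticks lie over the centre of the histogram, and the 8 members past 1.5-fold are named.

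The libraries held 25025243 counts (DMSO) and 25505289 counts (cabozantinib), and the lowest count of any member in either library was 101. All 10 markers of K562 and erythroid cells were present, from 63.1 to 12751 CPM, and 9 were higher with cabozantinib, with a median log2 ratio of 1.31. Of 16 markers of other cell types 4 reached 1 CPM, and no count was seen in either library for MS4A1, MPO, ELANE, KRT5 and VWF (limit of such a 0, 3 counts a library). The summed level of those 16 was 78.4 CPM in DMSO and 91.2 CPM with cabozantinib, most of it EPCAM. Of 15 genes of S phase and proliferation 4 passed the same rule upward (beside 8.15% of all measured genes) and 0 downward. These 4 were MCM4, PCNA, RRM2 and the general proliferation marker MKI67, and the median log2 ratio of the 15 was 0.37. Scaled by total counts 2 passed, MCM4 and PCNA, with a median of 0.28. In a bulk sample fewer cells of a type and less RNA per cell cannot be told apart. The part of these marker and proliferation differences in the values below was not tested.

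Among the DNA methylation genes only UHRF1 passed 1.5-fold (beside 20.5% of all measured genes either way), and the methyltransferases themselves differed little. UHRF1 (Entrez 29128, hg19 chromosome 19, 4909510 to 4962165, 17 exons in the deposited annotation) had 1265 counts (49.1 CPM) in DMSO and 2358 (95.2 CPM) with cabozantinib, 1.94-fold higher (95% counting interval 1.81 to 2.08). Among all measured genes its log2 ratio was at percentile 97.0. DNMT1, the maintenance enzyme that UHRF1 recruits, had 9241 counts (359 CPM) in DMSO and 9746 (393 CPM) with cabozantinib, a log2 ratio of 0.13 (0.09 to 0.17). DNMT3B, a de novo enzyme, had 3942 counts (153 CPM) in DMSO and 3761 (152 CPM) with cabozantinib, a log2 ratio of -0.01 (-0.08 to 0.05). The other de novo enzyme, DNMT3A, had 637 counts (24.7 CPM) in DMSO and 541 (21.8 CPM) with cabozantinib, a log2 ratio of -0.18 (-0.35 to -0.01). Of these 4 genes UHRF1 alone stood clear of the rest. The families compared by share were chosen after the values were seen. Per length DNMT1 made up 64.0% of the summed level of the 3 methyltransferase genes in DMSO and 66.5% with cabozantinib, DNMT3B 31.8% and 29.9%, and DNMT3A 4.22% and 3.54%, so the order of the 3 was the same in both libraries.

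Each TET gene was within 1.5-fold between the libraries (beside 20.5% of all measured genes past it either way). TET1 had 2497 counts (96.9 CPM) in DMSO and 2182 (88.1 CPM) with cabozantinib, a log2 ratio of -0.14 (-0.22 to -0.05). TET2, often mutated in myeloid disease, had 655 counts (25.4 CPM) in DMSO and 594 (24.0 CPM) with cabozantinib, a log2 ratio of -0.08 (-0.25 to 0.08). TET3 was the 1 member of the family above 0, with 1698 counts (65.9 CPM) in DMSO and 2116 (85.4 CPM) with cabozantinib, a log2 ratio of 0.37 (0.28 to 0.47). By length-corrected level the share of TET3 in the family went from 33.7% to 41.9% and that of TET1 from 56.8% to 49.5%.

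In PRC2 the catalytic subunits went opposite ways. EZH1 (Entrez 2145, hg19 chromosome 17, 40852293 to 40897071) had 1623 counts (63.0 CPM) in DMSO and 2580 (104 CPM) with cabozantinib, 1.65-fold higher (1.55 to 1.76). EZH2 (Entrez 2146, hg19 chromosome 7, 148504475 to 148581414), the form that prevails in dividing cells, had 8075 counts (313 CPM) in DMSO and 6084 (246 CPM) with cabozantinib, a log2 ratio of -0.35 (-0.40 to -0.30) that is short of 1.5-fold. The count ratio of EZH2 to EZH1 within a library needs no scaling between libraries. It was 4.98 in DMSO and 2.36 with cabozantinib, 2.11-fold lower (exact conditional 95% interval 1.97 to 2.27). EZH2 took 83.3% of the counts of the pair in DMSO (Clopper-Pearson interval 82.5% to 84.0%) and 70.2% with cabozantinib (69.2% to 71.2%). Corrected for length, EZH2 stayed the more abundant of the 2, at 8.61 times EZH1 in DMSO and 4.08 times with cabozantinib. Of the 15 genes of S phase and proliferation 14 were above 0, against 51.0% of all measured genes, and a link of EZH2 to them was not tested. Exons of a gene on the other strand, with 1 count in DMSO and 0 with cabozantinib, overlap 103 bases of EZH1.

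The remaining PRC2 subunits did not share one direction. EED, the subunit that binds the trimethyl mark, was lower by about as much as EZH2, with 1577 counts (61.2 CPM) in DMSO and 1193 (48.2 CPM) with cabozantinib, a log2 ratio of -0.35 (-0.46 to -0.24). SUZ12, the scaffold of the complex, had 4176 counts (162 CPM) in DMSO and 4117 (166 CPM) with cabozantinib, a log2 ratio of 0.04 (-0.03 to 0.10). JARID2, an accessory subunit that helps to place the complex on DNA, had 2245 counts (87.1 CPM) in DMSO and 2689 (109 CPM) with cabozantinib, a log2 ratio of 0.32 (0.24 to 0.40). None of these 3 reached 1.5-fold, and SUZ12 was below 0 under scaling by total counts.

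All 5 PRC1 members were above 0 (beside 51.0% of all measured genes), and CBX2 was higher by 1.5-fold (beside 8.15%). Other Polycomb genes went both ways, with 13 of 22 above 0, 9 below and 0 past 1.5-fold (beside 20.5% of all measured genes either way). CBX2 (Entrez 84733, hg19 chromosome 17, 77751977 to 77761449), a chromodomain subunit, had 101 counts (3.92 CPM) in DMSO and 193 (7.79 CPM) with cabozantinib, 1.98-fold higher (1.55 to 2.55). It was the least abundant member per length in both libraries. CBX8, a chromodomain paralog, had 175 counts (6.79 CPM) in DMSO and 228 (9.20 CPM) with cabozantinib, a log2 ratio of 0.44 (0.15 to 0.73). Of the ubiquitin ligase subunits, RING1 had 623 counts (24.2 CPM) in DMSO and 713 (28.8 CPM) with cabozantinib, a log2 ratio of 0.25 (0.09 to 0.41). RNF2 had 1396 counts (54.2 CPM) in DMSO and 1583 (63.9 CPM) with cabozantinib, a log2 ratio of 0.24 (0.13 to 0.34). BMI1, which stimulates them, had 143 and 155 CPM (0.11, 0.05 to 0.18). The ratio of RNF2 to RING1 counts was 2.24 in DMSO and 2.22 with cabozantinib, a log2 change of -0.01 (-0.20 to 0.18). ASXL1, a cofactor of the deubiquitinase that removes the PRC1 mark, had a log2 ratio of 0.09 (0.02 to 0.16).

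CBX2 and CBX8 are neighbours on chromosome 17, 6726 bases apart in the deposited annotation, and both were above 0. CBX2 stood to CBX8 in counts at a ratio of 0.577 in DMSO and 0.846 with cabozantinib.

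**Figure D3:**
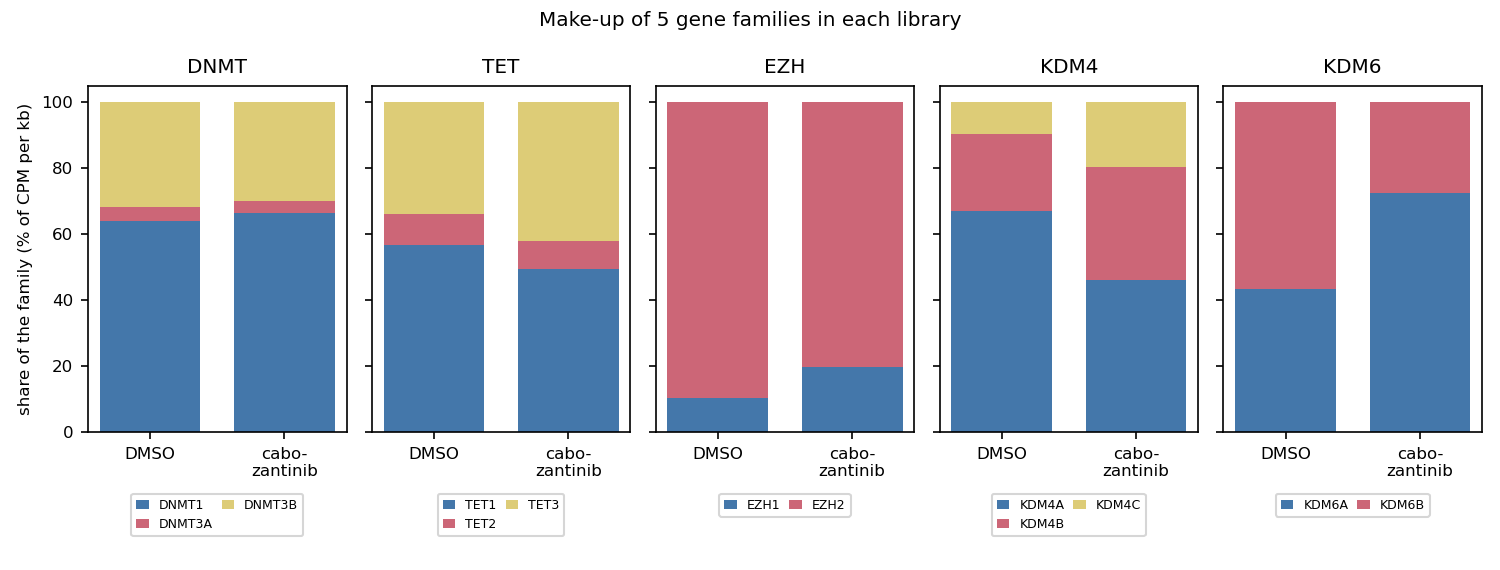
Share of each gene in the summed length-corrected level (CPM per kilobase) of 5 families, as stacked bars for the DMSO library on the left and the cabozantinib library on the right of each panel. EZH1 goes from 10.4% to 19.7% of the EZH pair, KDM6B from 56.5% to 27.5% of the KDM6 pair, and the DNMT panel is nearly the same in both libraries.

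None of the 7 histone deacetylases passed 1.5-fold (beside 20.5% of all measured genes past it either way), and HDAC1 came closest. HDAC1, a catalytic subunit of the NuRD, SIN3 and CoREST repressor complexes, had 5730 counts (222 CPM) in DMSO and 8090 (327 CPM) with cabozantinib, 1.47-fold (1.42 to 1.52). Its paralog HDAC2, which shares those complexes, had 6082 counts (236 CPM) in DMSO and 6283 (254 CPM) with cabozantinib, a log2 ratio of 0.10 (0.05 to 0.15). The count ratio of HDAC2 to HDAC1 went from 1.06 to 0.777, so HDAC1 was below HDAC2 in counts in DMSO and above it with cabozantinib. Per length HDAC1 was the higher of the pair in both libraries, and it was the most abundant of the 48 members with cabozantinib, at 156 CPM per kilobase. HDAC3, the enzyme of the NCoR complexes, had a log2 ratio of 0.29 (0.22 to 0.35).

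The class II members HDAC4 to HDAC7, which shuttle between nucleus and cytoplasm or act mainly in the cytoplasm, were all below 0 (beside 6144 of the 12536 measured genes). HDAC5 was lowest, with 1800 counts (69.9 CPM) in DMSO and 1281 (51.7 CPM) with cabozantinib, a log2 ratio of -0.43 (-0.54 to -0.33). HDAC4 (-0.06, -0.25 to 0.13), HDAC6 (-0.09, -0.17 to -0.02) and HDAC7 (-0.02, -0.08 to 0.04) lay near no change in log2 ratio. Of the class II genes outside the members, HDAC10 was above 0, at 0.34 (0.20 to 0.47), and HDAC9 did not reach 1 CPM. Among the NAD-dependent sirtuins, SIRT1 had 1599 counts (62.1 CPM) in DMSO and 1593 (64.3 CPM) with cabozantinib, a log2 ratio of 0.05 (-0.05 to 0.15). SIRT6 had 607 counts (23.6 CPM) in DMSO and 534 (21.6 CPM) with cabozantinib, a log2 ratio of -0.13 (-0.30 to 0.04), so both intervals span no change.

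Of the 6 acetyltransferases 2 were higher (beside 8.15% of all measured genes), and only KAT2B was under the other 3 scalings. These were the paralogs KAT2B and KAT2A, which are alternative catalytic subunits of the SAGA and ATAC complexes. KAT2B (PCAF, Entrez 8850, hg19 chromosome 3, 20081524 to 20195896) had 1276 counts (49.5 CPM) in DMSO and 2225 (89.8 CPM) with cabozantinib, 1.81-fold higher (1.69 to 1.94). KAT2A (GCN5, Entrez 2648, hg19 chromosome 17, 40265129 to 40273382) had 416 counts (16.1 CPM) in DMSO and 603 (24.3 CPM) with cabozantinib, 1.51-fold higher (1.33 to 1.71), and it is at the edge of the rule. Scaled by total counts its log2 ratio was 0.51, and it was 0.58 by DESeq2 size factors, by the upper quartile and from the fold in the authors' deposited table, each short of 1.5-fold. The authors' fold nearly equals the DESeq2-scaled ratio of the same counts (0.5834 and 0.5835), so it is not a separate check. The coactivators EP300 and CREBBP differed from each other. EP300 had 1889 counts (73.3 CPM) in DMSO and 2344 (94.6 CPM) with cabozantinib, a log2 ratio of 0.37 (0.28 to 0.46). CREBBP had 1847 counts (71.7 CPM) in DMSO and 1880 (75.9 CPM) with cabozantinib, a log2 ratio of 0.08 (-0.01 to 0.18). The count ratio of EP300 to CREBBP had a log2 change of 0.29 (0.16 to 0.41). KAT6A and KAT7, of the MYST family, had log2 ratios of 0.04 (-0.04 to 0.12) and 0.09 (0.00 to 0.18). Under scaling by total counts KAT6A and CREBBP were below 0.

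The largest differences among the 48 members were in the demethylases, of which 2 of 5 were lower and 0 higher (beside 12.3% and 8.15% of all measured genes). KDM6B (JMJD3, Entrez 23135, hg19 chromosome 17, 7743235 to 7758118), which removes methyl groups from lysine 27 of histone H3, had 2806 counts (109 CPM) in DMSO and 844 (34.1 CPM) with cabozantinib, 3.19-fold lower (2.96 to 3.46). Its log2 ratio of -1.68 was at percentile 1.93 of all measured genes. KDM4A (Entrez 9682, hg19 chromosome 1, 44115797 to 44171189), a demethylase of lysines 9 and 36 of histone H3, had 3621 counts (141 CPM) in DMSO and 1552 (62.7 CPM) with cabozantinib, 2.24-fold lower (2.11 to 2.38). The antisense gene KDM4A-AS1 overlaps 136 bases of the KDM4A exons (3.02%) and had 31 and 65 counts. These demethylase genes kept their calls under every alternative tried.

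Paralogs of these demethylases did not follow them. KDM6A, a related gene that acts on the same residue, had 72.3 CPM in DMSO and 77.4 CPM with cabozantinib, a log2 ratio of 0.10 (0.01 to 0.19). The count ratio of KDM6B to KDM6A, a comparison chosen after the values were seen, went from 1.51 to 0.440, 3.42-fold lower (3.09 to 3.79). In the KDM4 family KDM4B was at -0.09 and KDM4C at 0.42, and the count ratio of KDM4A to KDM4C, chosen likewise, had a log2 change of -1.58 (-1.75 to -1.42). Summed per length, the KDM6 pair had a log2 ratio of -0.64 and KDM4A, KDM4B and KDM4C together -0.63. On the residue that EZH1 and EZH2 methylate, the summed level per length of those writers had a log2 ratio of -0.19.

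The remaining demethylase members were within 1.5-fold. KDM1A (LSD1), which removes methyl groups from lysine 4 of histone H3, was abundant and nearly level, at 290.0 and 318 CPM (log2 ratio 0.13, 0.08 to 0.18). KDM5B, which acts on the same lysine, had 203 CPM in DMSO and 159 CPM with cabozantinib (-0.35, -0.41 to -0.29). KDM2B, which brings a variant PRC1 to unmethylated CG-rich DNA, had 22.3 and 30.0 CPM (0.42, 0.27 to 0.58).

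Among 7 lysine methyltransferases EHMT2 alone was past 1.5-fold (beside 20.5% of all measured genes either way). EHMT2 (G9a, Entrez 10919, hg19 chromosome 6, 31847536 to 31865464), which mono- and dimethylates lysine 9 of histone H3, had 517 counts (20.1 CPM) in DMSO and 778 (31.4 CPM) with cabozantinib, 1.56-fold higher, a log2 ratio of 0.65 (0.48 to 0.81). Scaled by total counts its log2 ratio was 0.56, short of 1.5-fold. Its dimer partner EHMT1 (GLP) had 2037 counts (79.1 CPM) in DMSO and 2255 (91.0 CPM) with cabozantinib, a log2 ratio of 0.20 (0.12 to 0.29). The count ratio of EHMT2 to EHMT1 went from 0.254 to 0.345, 1.36-fold higher (1.20 to 1.55). SUV39H1, which trimethylates the same lysine in heterochromatin, had 39.6 and 45.7 CPM (0.21, 0.08 to 0.33).

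The enzymes of lysine 36, SETD2 and NSD1, were both modestly above 0, with log2 ratios of 0.39 (0.32 to 0.45) and 0.30 (0.23 to 0.37). DOT1L, the methyltransferase of lysine 79, had 131 and 139 CPM (0.08, 0.01 to 0.14). SETD8, which monomethylates lysine 20 of histone H4, had 229.7 and 220.1 CPM (-0.06, -0.11 to -0.01). The marks set by this group were not measured here, only the transcripts.

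The arginine methyltransferases were abundant and within 1.5-fold (beside 20.5% of all measured genes past it either way). PRMT1, the main asymmetric enzyme, had the highest length-corrected level of all 48 members in DMSO, 133 CPM per kilobase, and 147 with cabozantinib. PRMT5, the main symmetric enzyme, had 236 and 293 CPM, a log2 ratio of 0.31 (0.26 to 0.36). Exons of PRMT5-AS1, on the other strand, overlap 26.0% of its length and had 0 counts in both libraries. WDR77, the obligate partner of PRMT5 and no member, was past 1.5-fold, at 83.4 and 144 CPM, 1.72-fold higher (1.63 to 1.82), and its exons share 88 bases with ATP5PB on the other strand. CARM1, a coactivator that methylates histone H3, had 156 and 148 CPM (-0.08, -0.15 to -0.02).

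Scaling cancels in ratios within a library. Of 12 planned pairs, 8 had an interval that excluded no change and 2 were past 1.5-fold, EZH2 to EZH1 and UHRF1 to DNMT1. The count ratio of UHRF1 to DNMT1 went from 0.137 to 0.242, 1.77-fold higher (1.64 to 1.90). TET3 to TET2 was 1.37-fold higher (1.21 to 1.57), CBX2 to CBX8 1.47-fold (1.06 to 2.03) and KAT2B to KAT2A 1.20-fold (1.04 to 1.39). The intervals of DNMT3B to DNMT3A (log2 change 0.17, -0.01 to 0.35), TET1 to TET2 (-0.05, -0.24 to 0.13), RNF2 to RING1 and SIRT1 to SIRT6 (0.18, -0.02 to 0.38) span no change.

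**Figure D4:**
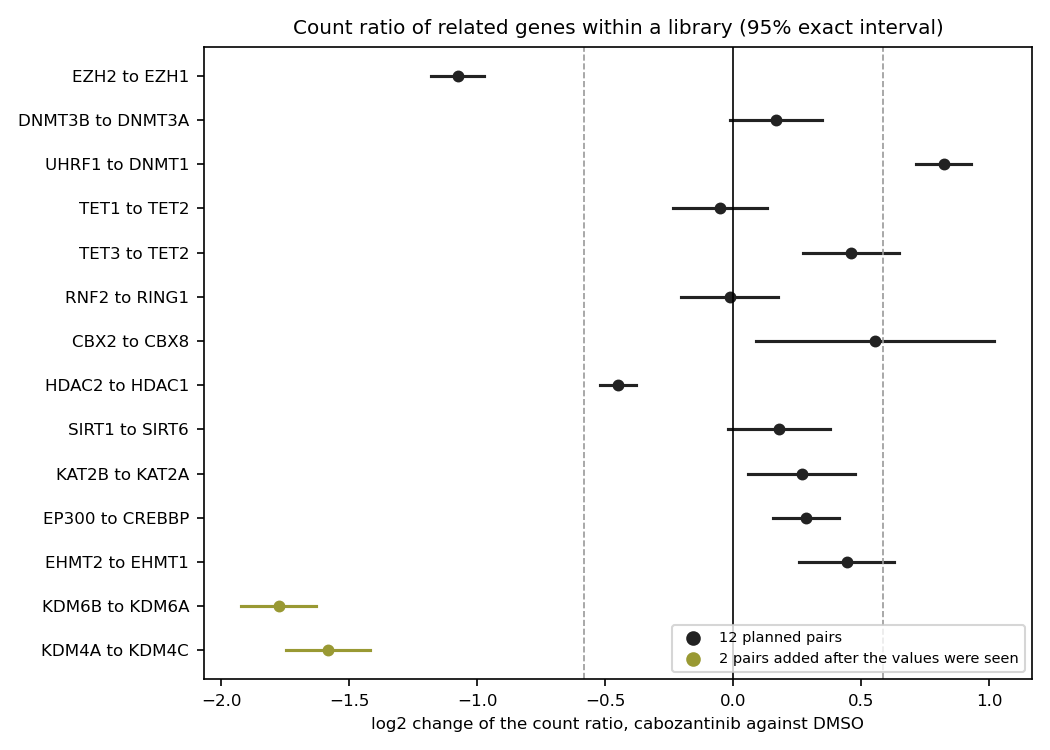
Log2 change, cabozantinib against DMSO, of the count ratio between 2 related genes within a library, with exact conditional 95% intervals, for 12 planned pairs and 2 pairs added after the values were seen; dashed lines mark 1.5-fold. EZH2 to EZH1 lies at -1.08 and UHRF1 to DNMT1 at 0.82, and most other planned pairs lie between the dashed lines.

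Of 114 other genes of the same pathways 110 were measured, and 3 were higher and 4 lower by the 1.5-fold rule (beside 8.15% and 12.3% of all measured genes). The median log2 ratio of the 110 was 0.14. IDH1, which makes the 2-oxoglutarate that TET and Jumonji enzymes consume, had 333 CPM in DMSO and 125 CPM with cabozantinib, 2.65-fold lower (2.55 to 2.77), whereas IDH2 had a log2 ratio of -0.24. Lower too were the methyltransferase genes SMYD3, 2.36-fold (2.22 to 2.53), and SETD7, 4.43-fold on 140 and 30 counts (3.01 to 6.90). RCOR1, the CoREST subunit that ties KDM1A to HDAC1 and HDAC2, was 1.63-fold lower (1.56 to 1.71). SMYD5, with a log2 ratio of 0.59, and PRMT2, with 0.65, were past 1.5-fold on the higher side. Under DESeq2 size factors or the upper quartile SMYD5 was not past it, and under total counts WDR77 alone of the 3 was, with 6 genes lower. These scalings of the lists were added after the values were seen. Of the lists by role, 0 of 13 measured demethylases outside the members and 0 of 13 acetyltransferases and partners passed 1.5-fold, but the demethylase gene JHDM1D was past it on the lower side under each of the other 3 scalings.

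By the posterior probability in the authors' deposited table, 3 of the 48 members reached 0.95 for a difference between the conditions (6.25%, beside 4.66% of the 17392 genes it lists). In the authors' deposited table these were KDM6B (1.00), KDM4A (1.00) and UHRF1 (0.968). All 48 members reached 5 CPM, whereas the genes listed there include some under 1 CPM, so these shares compare unlike sets. The authors' deposited table gave 0.845 to KAT2B, 0.826 to CBX2, 0.397 to EZH1, 0.203 to EHMT2 and 0.121 to KAT2A, so none of these 5 reached 0.95 there. For 40 members the probability in the authors' deposited table was under 0.05. With 1 library in each group these probabilities have no check by replicates either.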

How the data were processed

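RNA of 1 DMSO and 1 cabozantinib culture was sequenced, per the labels' protocols with a strand-specific TruSeq library. The values deposited for each library are raw counts, 1 for each Entrez gene. Reads were aligned with Rsubread to hg19, per the file headers, with hg19 and GRCh37 as builds per the submitters' processing notes. Whether strand was used in counting, and how multiply aligned reads were treated, are details not given in the sources used here. The authors' deposited table holds fold ratios and posterior probabilities, a score from 0 to 1. Its direction was read from the labelled counts. Its 4 columns of values per condition carry no sample label and were not used.

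TMM factors, from edgeR 4.0.16 (R 4.3.3), were 1.03 in DMSO and 0.971 in cabozantinib. CPM per kilobase used the deposited exon lengths. A gene was measured at 1 CPM or more in either library. Ratios had a pseudocount of 0.5 and exact 95% intervals. Intervals and limits cover counting error only. No p-value was computed. DESeq2 1.42.0 size factors, total counts and the upper quartile were alternatives. Python 3.11.15 with scipy 1.17.1 was used, and the scripts were tested on simulated data. Exons of 5 members overlap those of another gene. Full values were given for members past 1.5-fold, for those nearest that threshold, for the planned pairs and for the DNMT, UHRF1 and core PRC2 genes, and other genes were named up to 3 each way per list past 1.5-fold. The list of other pathway genes leaves out 1 gene that is not reported here. The members and lists were chosen with earlier results of these data known.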

Additional observations from a re-analysis of the deposited data

How the results depend on the processing

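The 6 higher and 2 lower members at 1.5-fold became 4 and 2 under scaling by total counts, and 5 and 2 under DESeq2 size factors, the upper quartile or the fold of the authors' deposited table. They were 6 and 2 with a pseudocount of 5 or the length trend removed. With a filter of 5 CPM or no filter they could not differ, because all 48 members reached 5 CPM. At a 2-fold threshold 0 were higher and 2 lower. The members' median log2 ratio of 0.11 was 0.024 under scaling by total counts, where the median of all measured genes went from 0.01 to -0.07, and it was 0.08 as the ratio of summed CPM. No member past 1.5-fold changed sign under these alternatives, while SUZ12, SIRT1, KAT6A, CREBBP and DOT1L, all near 0, did under total counts, and SUZ12 and KAT6A with the length trend removed. For single members the filters could change no ratio, since every member reached 5 CPM, and the 2-fold setting changed only the threshold. Of the values of single members under all settings, these included, 421 kept their side of the threshold. The 11 that did not were 5 of KAT2A, 2 of EHMT2 and 1 each of UHRF1, EZH1, CBX2 and KAT2B, under the other scalings, the authors' fold or at 2-fold. The authors' fold was judged with the intervals under DESeq2 size factors and nearly repeats that setting, so it is not a separate check. No paired analysis was possible because each group holds 1 library, and for the same reason no library could be left out. Low counts limit CBX2 and CBX8 most.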
